A study of Mus musculus with 18 samples.

Results

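Crh, which encodes corticotropin-releasing hormone, and 7 genes that carry or answer the glucocorticoid signal (Crhr1, Crhbp, Nr3c1, Hsd11b1, Hsd11b2, Fkbp5 and Tsc22d3) were followed in RNA of whole embryonic mouse lungs collected at 14.5 dpc. These 8 genes were found by symbol, among 23420 rows, in each of 3 tables. Crh was chosen by its fall in these same deficient lungs, so its values are given as a description with no test. The other 7 were taken for their place in the pathway, but with earlier results of these data known. Each line carried a floxed allele of a different gene: Rptor, a scaffold of the growth-controlling kinase complex mTORC1, Tfam, which maintains and transcribes mitochondrial DNA, or Cox10, which is needed to assemble cytochrome c oxidase. Deficient lungs were Rptorf/f; ShhCre/+, Tfamf/f; ShhCre/+ or Cox10f/f; ShhCre/+, and their littermate controls were Rptorf/+; ShhCre/+, Tfamf/+; ShhCre/+ or Cox10f/+; ShhCre/+. Control lungs therefore also carried the ShhCre allele and had lost 1 copy of the floxed gene wherever Cre had acted. ShhCre acts in the lung epithelium, whereas RNA came from the whole organ, so that fewer cells of a type and less RNA per cell cannot be told apart. Each of the 6 groups held 3 samples, and the labels do not say that each was a separate embryo, so p-values measure the spread between these samples.

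Corticotropin-releasing hormone is best known as the hypothalamic peptide that makes the pituitary release ACTH, which in turn drives the adrenal gland to make glucocorticoid. The fetal lung is a main target of that steroid, and it also transcribes Crh itself. Mice lacking Crh that are born to mothers lacking it die at birth with immature lungs unless glucocorticoid is supplied. Within a cell, Hsd11b1 regenerates active glucocorticoid and Hsd11b2 inactivates it. The receptor encoded by Nr3c1 is held ready for ligand by heat shock proteins and their partners, among them the product of Fkbp5, and it then drives target genes such as Tsc22d3 and Fkbp5 itself.

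Each library held 27727202 to 29611064 normalised reads, that is, read counts divided by a size factor per sample. Because the tables were scaled separately, levels in different lines are set side by side below but were not tested. The deleted genes did not separate the groups when reads over the whole gene were counted: the log2 fold change was -0.07 ± 0.08 (SE) for Rptor in its own line, -0.12 ± 0.08 for Tfam and -0.01 ± 0.07 for Cox10, so they do not check the labels. Over all genes tested, 34.8% passed the test (limma, adjusted p below 0.05) for Rptor, 4.66% for Tfam and 0.475% for Cox10. Epithelial markers fell by limma (adjusted p below 0.05) in 9 of 9 genes in Rptor-deficient, 3 of 9 in Tfam-deficient and 1 of 9 in Cox10-deficient lungs, and their summed level went from 26933 to 27670 in Rptor controls to 11074 to 14715 in deficient lungs. In the Rptor line, proximal airway markers fell in 3 of 4 tested, distal tip markers fell in 3 and rose in 1 of 5, neuroendocrine markers fell in 1 of 3, mesenchymal markers rose in 5 of 6, endothelial markers in 4 of 5, blood markers in 2 of 2 and markers of neighbouring tissue in 1 of 6. In Tfam-deficient lungs, proximal airway markers fell in 2 of 4, distal tip markers fell in 1 and rose in 1 of 5, and neuroendocrine markers fell in 1 of 4. None of the other lists had a call there, and the epithelial gene Foxa2 was the only marker called in the Cox10 line. Xist, the transcript of the inactive X chromosome, ran from 13.1 to 43497 normalised reads, with intermediate values in several libraries (5265 and 10224 in the Tfam line). The part of the marker shifts in the results below was not tested, and fits with Xist as a covariate were run as an alternative.

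Crh RNA (gene at chromosome 3, 19693401 to 19695396 in GRCm38, minus strand) was lower in every deficient lung than in any control of its line. In the Rptor line Crh read 96.7, 103 and 78.6 normalised reads in the controls and 3.06, 9.90 and 4.94 in the deficient lungs, or 92.7 ± 12.6 against 5.97 ± 3.53 (SD, n = 3). In the Tfam line it read 108, 92.0 and 128 in the controls and 19.8, 17.9 and 20.5 in the deficient lungs, or 109 ± 18.1 against 19.4 ± 1.38. In the Cox10 line it read 69.5, 37.3 and 53.0 in the controls and 19.0, 11.1 and 6.92 in the deficient lungs, or 53.3 ± 16.1 against 12.3 ± 6.12. The groups did not overlap in any of the 3 lines, but Crh was chosen for this fall. Of all genes tested, 50.3%, 22.8% and 21.3% did not overlap in the Rptor, Tfam and Cox10 lines. The loss of Crh was deepest in the Rptor line. Control means exceeded deficient means by 15.5-fold, 5.63-fold and 4.33-fold, or losses of 93.6%, 82.2% and 76.9%, in the order Rptor, Tfam, Cox10.

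**Figure D1:**
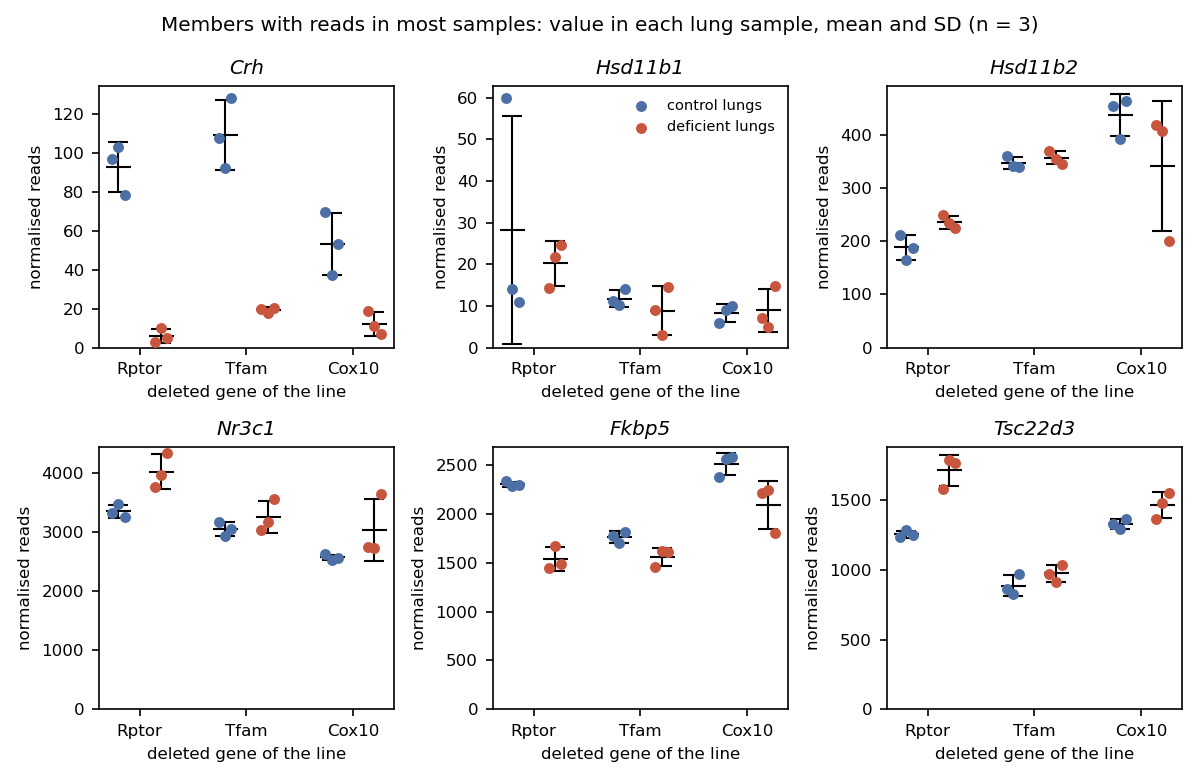
Each panel plots normalised reads (linear axis from 0) of 1 gene in every lung sample, with control lungs in blue, deficient lungs in red, and black bars for the mean and SD of 3 samples. Crh in deficient lungs lies at 20.5 or lower while no control is below 37.3, whereas the other genes shift by much smaller fractions of their level.

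On the log2(value + 1) scale used for all fits, Crh differed by -3.86 ± 0.37 (SE) with loss of Rptor, -2.42 ± 0.19 with loss of Tfam and -2.09 ± 0.39 with loss of Cox10. The difference of the Rptor from the Tfam effect was -1.44 ± 0.49, of the Rptor from the Cox10 effect -1.78 ± 0.49 and of the Tfam from the Cox10 effect -0.34 ± 0.49. These values rest on few molecules. The 3 Rptor-deficient libraries together held 18 Crh reads (exact Poisson 95% interval 10.7 to 28.4), against 279 in their controls (247 to 314). Corresponding sums were 59 against 325 reads in the Tfam line and 37 against 160 in the Cox10 line. The intervals cover counting error only. In the Rptor line Crh passed the filter on low values through its controls, since no deficient library reached a value of 10.

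Ordered by mean, Crh was highest in Tfam controls, then Rptor controls, Cox10 controls, Tfam-deficient, Cox10-deficient and Rptor-deficient lungs. Neighbours in that order overlapped for Tfam and Rptor controls, for Tfam-deficient and Cox10-deficient lungs and for Cox10-deficient and Rptor-deficient lungs. Rptor and Cox10 controls did not overlap, nor did Cox10 controls and Tfam-deficient lungs.

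Since epithelial RNA itself was lower, Crh was also set against the mean log2(value + 1) of 3 epithelial genes, Epcam and Cdh1, which encode adhesion proteins of epithelial cells, and Nkx2-1, the transcription factor that marks lung epithelium. That mean moved by -1.17 with loss of Rptor, -0.27 with loss of Tfam and -0.40 with loss of Cox10. Crh less this mean still did not overlap between groups in any line. It ran from -6.04 to -5.62 in Rptor controls and from -8.92 to -7.77 in Rptor-deficient lungs, a difference of means of -2.69. The corresponding differences were -2.15 for Tfam and -1.69 for Cox10, equal to 6.46-fold, 4.44-fold and 3.23-fold in the order Rptor, Tfam, Cox10. Crh was chosen for a strong fall and these genes were not, so that the sizes of the falls are given as values only.

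**Figure D2:**
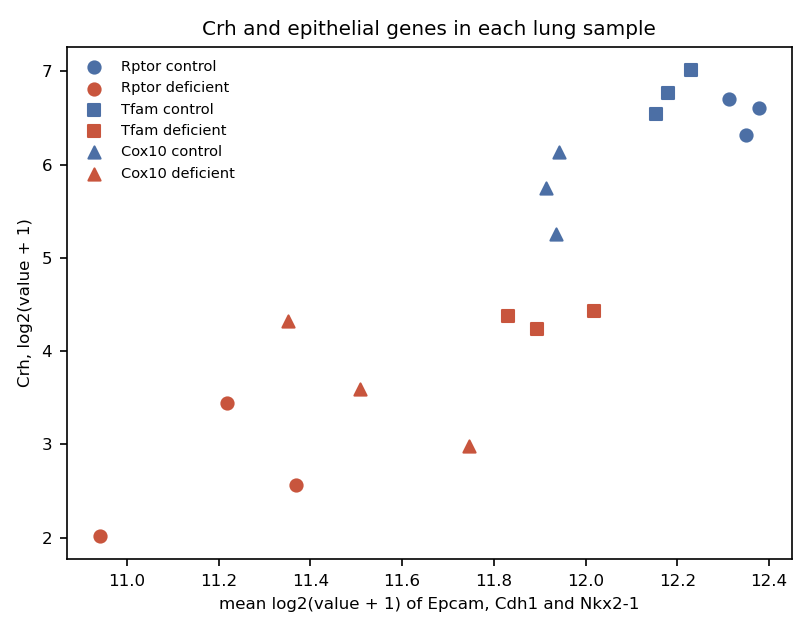
Each point is 1 lung sample, with the average of Nkx2-1, Epcam and Cdh1 as log2(value + 1) on the horizontal axis and log2(value + 1) of Crh on the vertical axis, shapes for the lines and colours for control (blue) and deficient (red). Tfam-deficient lungs sit far below Tfam controls in Crh with a shift of only -0.27 in the epithelial mean, and Rptor-deficient and Cox10-deficient lungs overlap on both axes.

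The partners of Crh in the peptide pathway were at the floor of detection. Crhr1, the main receptor for the hormone, had 0 reads in 13 of 18 libraries and at most 2 in the others. Crhbp, the protein that binds and sequesters the hormone, had 0 to 3 reads in every library. Neither gene passed the filter on low values in any line, and at or under a floor of 3 reads no fold is given. Without the filter Crhbp was called in the Rptor line on 0 reads in each control and 1 to 3 in deficient lungs (limma, adjusted p = 0.0256). The rest of the family was as sparse: Crhr2, the second receptor, had at most 18 reads, and the related ligands Ucn, Ucn2 and Ucn3 had at most 2, 6 and 1. Crh was thus the single member of this 7-gene family with more than 18 reads in any library.

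Several of the steps between the peptide and the steroid were sparse as well. Pomc, the precursor of ACTH, had 12 to 49 reads, and its convertase Pcsk1 had 0 to 12. Mc2r, the ACTH receptor, had at most 2 reads. Of the adrenal enzymes that complete glucocorticoid synthesis, Cyp11b1 had at most 1 read and Cyp21a1 was at 0 in 13 of 18 libraries, with its highest value, 17 reads, in a Tfam control. Other genes of synthesis were better covered, with 129 to 206 reads for Star, which carries cholesterol into mitochondria. Hsd3b6 had 189 to 599 reads, Tspo 216 to 695, Fdx1 308 to 641 and Fdxr 265 to 412. None of the steroid synthesis genes passed the test in any line by limma within each line without pairing (5, 6 and 5 tested for Rptor, Tfam and Cox10). At an unadjusted p under 0.05 the count was 1 in the Rptor line and 0 in the others, and edgeR's quasi-likelihood test called 0 in each line. That gene was Fdx1, which supplies electrons to the steroid-making enzymes, at -0.30 ± 0.11 in the Rptor line (adjusted p = 0.0528). It passed with the replicate number as a block (0.0204), with a mean of at least 50 (0.0491), in the fit of all 18 samples (0.0293) and without the second control or the third deficient lung (0.0439 and 0.0398). Without a filter on low values the Rptor line also had calls for Cyp17a1, an enzyme of steroid synthesis (0 to 2.00 normalised reads in controls and 3.96 to 11.2 in deficient lungs, adjusted p = 0.0274), Pcsk1 (6.98 to 9.95 against 0.988 to 1.98, 0.00452) and Mrap, the accessory protein of the ACTH receptor (2.00 to 2.99 against 9.18 to 26.7, 0.0126).

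Among the enzymes that set the steroid level inside a cell, the inactivating enzyme was far more abundant than the activating one. Per kilobase of merged exons, Hsd11b2 averaged 102, 189 and 238 normalised reads in the Rptor, Tfam and Cox10 controls, while Hsd11b1 averaged 6.65, 2.77 and 1.96. Hsd11b2 read 212, 165 and 188 normalised reads in Rptor controls and 249, 234 and 225 in Rptor-deficient lungs. All deficient lungs were above the controls, but the log2 fold change of 0.33 ± 0.13 (SE) missed the threshold (limma, adjusted p = 0.0747). Hsd11b2 lay between 339 and 361 in Tfam controls and between 346 and 370 in Tfam-deficient lungs (log2 fold change 0.04 ± 0.08, from 0.01 to 0.07 with single samples left out). In the Cox10 line controls lay between 393 and 465 and deficient lungs read 418, 407 and 201. The groups overlapped in both lines, and the Cox10 log2 fold change was -0.43 ± 0.26 with the low library, the third, and -0.08 without it.

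Hsd11b1 was too low for a stable value. It read 59.8, 14.0 and 10.9 normalised reads in Rptor controls and 14.3, 21.8 and 24.7 in Rptor-deficient lungs, and the log2 fold change of -0.09 ± 0.57 became 0.63 when the first control was left out. Tfam-line samples read 10.1 to 14.0 against 2.98 to 14.7 (log2 fold change -0.57 ± 0.48, limma adjusted p = 0.596), which became -0.02 without the second deficient lung and -1.01 without the third. In the Cox10 line, with 5.03 to 14.8 over all 6 samples, it did not pass the filter on low values. Neither enzyme passed the test in any line. Set against the epithelial mean described for Crh, Hsd11b2 went from -4.79 ± 0.15 in Rptor controls to -3.29 ± 0.29 in deficient lungs (log2 scale, SD, n = 3), with no overlap. It also did not overlap with loss of Tfam (a difference of means of 0.31), while the groups overlapped with loss of Cox10 (-0.03). These values are descriptions, and the epithelial mean itself was lower in deficient lungs of each line.

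Other genes of this step passed the test in the Rptor line. H6pd, which supplies the cofactor that lets Hsd11b1 work as an activating enzyme, rose by 0.42 ± 0.08 on the log2 scale (limma, adjusted p = 0.00600), from 2956 to 3474 normalised reads in controls to 3854 to 4572. Abcb1a, an efflux pump that exports glucocorticoids among many other substrates, rose by 0.55 ± 0.14 (adjusted p = 0.0166), and Srd5a1, a steroid reductase, fell by 0.33 ± 0.10 (adjusted p = 0.0271). That made 3 of 5 tested genes of prereceptor control in the Rptor line (34.8% of all genes), with 0 of 6 in the Tfam line (4.66%) and 0 of 5 for Cox10 (0.475%). At an unadjusted p under 0.05 these last counts were 2 and 1, and edgeR called 0 in both.

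Downstream, Nr3c1, Fkbp5 and Tsc22d3 all passed the test in the Rptor line, and none of them did in the Tfam or Cox10 line. Of the 7 members besides Crh, 5 could be tested in the Rptor line and 3 passed (limma, adjusted p below 0.05), against 34.8% of all 14940 genes tested there. For Tfam 0 of 5 passed against 4.66% of genes, and in the Cox10 line 0 of 4 against 0.475%. At an unadjusted p under 0.05 the counts were 1 and 1, in both cases Fkbp5, and edgeR called 0 in both lines. Without regard to the test, groups did not overlap for 4 of 5 members in the Rptor line, 1 of 5 in the Tfam line and 3 of 4 in the Cox10 line, where 50.3%, 22.8% and 21.3% of genes did not overlap.

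Nr3c1, the glucocorticoid receptor, was expressed throughout. Normalised reads were 3329, 3473 and 3247 in Rptor controls and 3767, 3962 and 4339 in Rptor-deficient lungs, with no overlap. Nr3c1 rose by 0.26 ± 0.06 on the log2 scale (limma, adjusted p = 0.0142). This call was lost when the third Rptor control was left out (0.24, adjusted p = 0.0564). The Tfam groups overlapped, at 2935 to 3161 in controls and 3033 to 3553 in deficient lungs (log2 fold change 0.09 ± 0.07, limma adjusted p = 0.544), and the value was 0.02 without the third deficient lung and 0.14 without the first. Cox10 controls read 2520 to 2619 and deficient lungs 2745, 2720 and 3640, a log2 fold change of 0.23 ± 0.11 (adjusted p = 0.412) that was 0.09 without the third deficient library. The related receptor Nr3c2, which binds mineralocorticoid and glucocorticoid, was scarce, with control means of 51.5, 64.2 and 24.3 normalised reads, and did not pass the test in any line without pairing. With the replicate number as a block, the log2 fold change of Nr3c2 in the Rptor line, -0.63, had an adjusted p of 0.0438 in place of 0.106.

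Fkbp5 (chromosome 17, 28399094 to 28517527), the co-chaperone that lowers the affinity of the receptor for hormone and is itself induced by glucocorticoid, was lower in every deficient lung than in the controls of its line. In the Rptor line it read 2334, 2292 and 2293 normalised reads in controls and 1451, 1677 and 1491 in deficient lungs. It fell by 0.59 ± 0.07 on the log2 scale (limma, adjusted p = 0.000508), and the call was kept with each of the 6 samples left out in turn. Tfam-line samples read 1777, 1704 and 1821 against 1454, 1623 and 1609, and in the Cox10 line 2383, 2563 and 2587 against 2217, 2251 and 1809. These log2 fold changes, -0.18 ± 0.06 and -0.27 ± 0.09, did not pass (adjusted p = 0.168 and 0.290), and without the third Cox10-deficient library the Cox10 value was -0.17. Set against the mean of the 3 epithelial genes, Fkbp5 changed sign, with differences of 0.59 with loss of Rptor, 0.09 with loss of Tfam and 0.13 with loss of Cox10. The sign follows from that mean, which fell by more than Fkbp5 did (-1.17, -0.27 and -0.40 in the same order). Which cells held Fkbp5 RNA was not determined, so that these values are a description. The groups did not overlap on this measure in the Rptor and Tfam lines and overlapped in the Cox10 line (-0.72 to -0.58 in controls and -0.92 to -0.24 in deficient lungs).

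Tsc22d3, which encodes the glucocorticoid-induced leucine zipper protein and lies on the X chromosome (140539528 to 140600659), moved the other way in the Rptor line. It read 1236, 1286 and 1252 normalised reads in controls and 1584, 1790 and 1773 in deficient lungs. It rose by 0.45 ± 0.07 on the log2 scale (limma, adjusted p = 0.00165), and the call was kept with each of the 6 samples left out in turn. With Xist as a covariate the value was again 0.45 (adjusted p = 0.00559). Tfam-line samples read 864, 828 and 973 against 975, 916 and 1038, and in the Cox10 line 1330, 1294 and 1366 against 1366, 1481 and 1555. The differences there, 0.14 ± 0.08 and 0.14 ± 0.06, did not pass (adjusted p = 0.415 and 0.391) and ran from 0.09 to 0.21 and from 0.10 to 0.19 with single samples left out. Fkbp5 and Tsc22d3, both widely used as readouts of the receptor, thus went in opposite directions in the Rptor line.

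**Figure D3:**
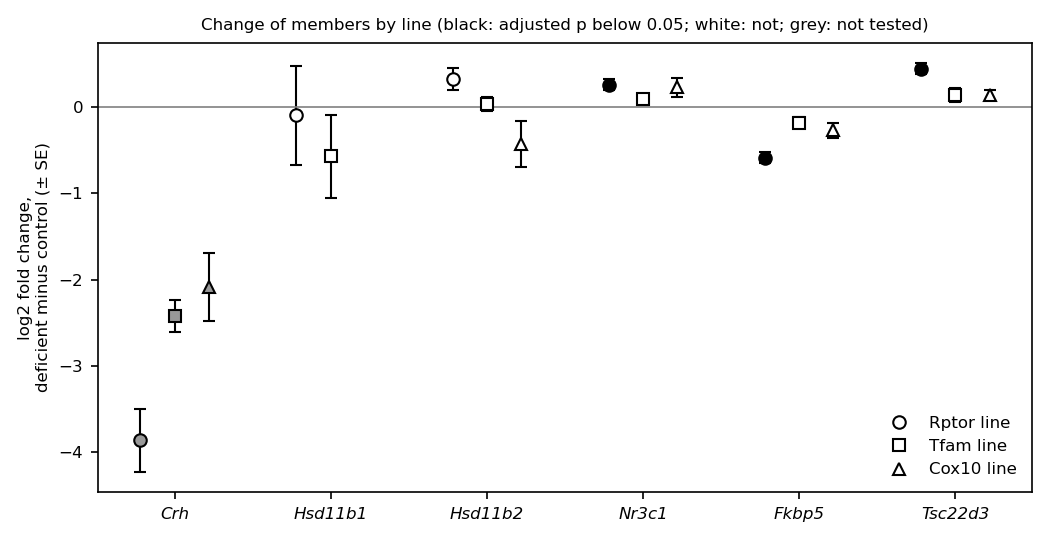
The vertical axis is the log2 fold change (deficient minus control) with its SE for 6 genes, with circles, squares and triangles for the Rptor, Tfam and Cox10 lines. Filled black points passed the test, white points did not, and grey Crh points were not tested; Crh lies between -3.86 and -2.09 while every tested gene lies within 0.59 of 0.

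The promoters of both targets are shown as a description. Sites farther from the start were not searched, and any link of these sequences to the opposite directions was not tested. RefSeq promoter windows, 250 bases before each annotated start (GRCm38.p6), were searched on both strands for the glucocorticoid receptor half-site AGAACA and its full palindrome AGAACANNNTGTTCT, which contains it. The half-site occurred in 16.1% of 32851 windows and the palindrome in 3 of them. Fkbp5 (chr17:28486150-28486399, minus strand) had neither, and of 3 windows of Tsc22d3 the most upstream (chrX:140600523-140600772, minus strand) held 1 half-site, beginning 185 bases before the start and printed in capitals as its reverse complement. The windows of Crhr1, Crhbp and Hsd11b1 held none. The cyclic AMP response element TGACGTCA, found in 1.55% of windows, was in none of these. No window was available for Crh or Hsd11b2, and none is reported here for Nr3c1.
Fkbp5: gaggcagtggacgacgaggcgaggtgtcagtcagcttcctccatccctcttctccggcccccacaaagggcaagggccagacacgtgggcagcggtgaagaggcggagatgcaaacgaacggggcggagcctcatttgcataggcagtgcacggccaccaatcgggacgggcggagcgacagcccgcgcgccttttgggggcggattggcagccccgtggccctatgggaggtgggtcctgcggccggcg
Tsc22d3: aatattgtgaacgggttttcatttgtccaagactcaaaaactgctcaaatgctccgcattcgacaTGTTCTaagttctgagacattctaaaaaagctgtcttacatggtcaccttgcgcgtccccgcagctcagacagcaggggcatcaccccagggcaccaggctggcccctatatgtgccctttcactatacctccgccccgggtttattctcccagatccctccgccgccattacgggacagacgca

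Whether the effect of deletion differed between lines was tested in 1 model over all 18 samples, on 14548 genes. Fkbp5 fell more in the Rptor than in the Tfam line, by -0.41 ± 0.11 (SE) on the log2 scale (limma, adjusted p = 0.0233), where 11.2% of genes differed. This was the single difference among the members that passed, and it was lost without the first Rptor-deficient, the second Tfam control, the second Tfam-deficient or the third Tfam-deficient library (adjusted p from 0.0535 to 0.0661). For Rptor against Cox10, where 7.49% of genes differed, Fkbp5 gave -0.32 ± 0.11 (adjusted p = 0.0860), which passed without the second Rptor-deficient or the third Cox10-deficient library (0.0439 and 0.00618). The difference for Tsc22d3 was 0.31 ± 0.10 against each of the Tfam and Cox10 lines (adjusted p = 0.0575 and 0.0756). With the replicate number as a block, the Tsc22d3 differences had adjusted p = 0.0219 and 0.0294. Both also passed without the first Rptor-deficient (0.0341 and 0.0399) or the third Cox10-deficient library (0.0409 and 0.0367), and the second without the third Tfam control (0.0486). For Rptor against Cox10 the values were 0.76 ± 0.27 for Hsd11b2 (adjusted p = 0.0995) and 0.03 ± 0.13 for Nr3c1 (0.904), and without the third Cox10-deficient library they were 0.41 and 0.17. Hsd11b2 passed with Xist as a covariate (0.88, adjusted p = 0.0214) and without the first Cox10-deficient library (0.94, 0.0388). Between the Tfam and Cox10 lines, where 0.055% of genes differed, the lowest adjusted p of a member was 0.977. At an unadjusted p under 0.05, 2 members differed between Rptor and Tfam, 3 between Rptor and Cox10 and 0 between Tfam and Cox10.

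The wider pathway was described with 73 listed genes besides Crh, of which 51 were tested in the Rptor line. There 20 passed, 11 higher and 9 lower, which is 39.2% against 34.8% of all genes tested (16.6% higher and 18.2% lower). In the Tfam line 1 of 55 passed and in the Cox10 line 0 of 51, with 11 and 8 at an unadjusted p under 0.05 and 0 called by edgeR in either. Background shares were 2.03% higher and 2.63% lower in the Tfam line and 0.141% higher and 0.335% lower in the Cox10 line. In the Rptor line 15 of the 20 calls held with each sample left out in turn, and Abcb1a, Errfi1, Nr3c1, Nrip1 and Srd5a1 did not. Abcb1a was lost without the first or the third control or the third deficient lung (adjusted p from 0.0528 to 0.0611), and Errfi1 without the second or the third control or the second deficient lung (0.0549 to 0.0591). Srd5a1 was lost without the first or second control (0.0820 and 0.0911), and Nrip1 without the first or the third control or the second or the third deficient lung (0.0559 to 0.0936). With Xist as a covariate 18 passed, without Srd5a1 and Nrip1 (0.0502 and 0.0553). With the replicate number as a block 25 passed, the 20 and Angptl4, Ddit4, Fdx1, Nr3c2 and Smarca4.

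Of 14 genes of the receptor and its chaperones tested in the Rptor line, 7 fell, Nr3c1 rose and 6 did not pass, where 18.2% of all genes fell and 16.6% rose. Of those 6, Dnajb1 passed in the fit of all 18 samples and without the third deficient lung (adjusted p = 0.0397 and 0.0309), Ppid without the second (0.0366) and St13 without the first (0.0469). Nr3c2 passed with the replicate number as a block (0.0438). The median log2 fold change was -0.34 against 0.01 over all genes tested. Hsp90aa1, the inducible form of the chaperone that keeps the receptor able to bind hormone, fell from 23542 ± 827 to 16469 ± 223 normalised reads (SD, n = 3), which is -0.51 ± 0.05 (SE) on the log2 scale (limma, adjusted p = 0.000271). Its constitutive relative Hsp90ab1 read 116106 ± 6150 against 109132 ± 6897 and did not pass the test (adjusted p = 0.393). Fkbp4, a co-chaperone that counteracts Fkbp5 on the receptor, fell by 0.52 ± 0.08, and Stip1, which links the chaperones Hsp70 and Hsp90, by 0.47 ± 0.06. Ptges3, which stabilises the hormone-binding complex, fell by 0.42 ± 0.05, Hspa8, the constitutive Hsp70, by 0.50 ± 0.09, and Ppp5c, a phosphatase in the complex, by 0.27 ± 0.06. These genes serve many client proteins besides the receptor. Fkbp5, described above, was the remaining gene that fell. It is also on the list of targets, so that its call is counted in both lists. Stip1 also fell in the Tfam line, from 9777 ± 49.8 to 8414 ± 280 (log2 fold change -0.22 ± 0.05, adjusted p = 0.0468). That call was lost with edgeR, without a filter on low values, with scaling to library totals and with Xist as a covariate (adjusted p from 0.0534 to 0.0692), and when any sample of the line other than the third control was left out (0.0956 to 0.186). In the Cox10 line none passed (4 at an unadjusted p under 0.05, edgeR 0), with a median of -0.10.

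Of 20 glucocorticoid target genes tested in the Rptor line, 7 rose, 2 fell and 11 did not pass (35% higher and 10% lower, against 16.6% and 18.2% of all genes), with a median of 0.21. Besides Tsc22d3, the risers were Dusp1, a phosphatase that shuts off MAP kinases, by 0.56 ± 0.10, Per1, a clock gene, by 0.54 ± 0.09, and Irs2, an insulin receptor substrate, by 0.52 ± 0.12. Cebpd, a transcription factor, rose by 0.48 ± 0.09, Cdkn1c, a cell cycle inhibitor, by 0.45 ± 0.10, and Bcl6, a transcriptional repressor, by 0.56 ± 0.14. Besides Fkbp5, Errfi1, an inhibitor of the EGF receptor, fell by 0.26 ± 0.07. The well known targets Klf9 and Zbtb16, both transcription factors, and Sgk1, a kinase, were tested and did not pass (-0.32 ± 0.15, 0.18 ± 0.18 and -0.15 ± 0.34), although Klf9 passed without the first deficient lung (-0.44, adjusted p = 0.0308). Ddit4 read 8588 normalised reads in the first Rptor-deficient lung against 2106 and 2291 in the others, with an adjusted p of 0.146 by limma, 0.0382 with the block and 0.0378 in the fit of all 18 samples. Angptl4 read 388, 919 and 986 in Rptor controls and 523, 1668 and 1858 in deficient lungs, 0.73 ± 0.50 on the log2 scale (adjusted p = 0.285). It passed with the block (0.00163) and without the first deficient lung (1.32, 0.0152), as did Nfkbia without that lung (0.0414). Many of these genes also respond to other signals, and mesenchymal and endothelial markers, whose summed levels went from 180791 to 211605 and 25776 to 27184 in controls to 371216 to 401820 and 32362 to 36324, rose in the same lungs.

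In the Tfam line none of 21 tested targets passed (5 at an unadjusted p under 0.05, edgeR 0), with a median of -0.01. Alternatives called Angptl4, a secreted inhibitor of lipoprotein lipase, with Xist as a covariate (0.31, adjusted p = 0.0418 from 0.0629) and Errfi1 with the replicate number as a block (-0.28, 0.0453 from 0.0770). Without the third Tfam control Angptl4, Errfi1 and Nfkbia, an inhibitor of NF-kB, passed (adjusted p = 0.0354, 0.00670 and 0.0400). In the Cox10 line none of 20 did (4 at an unadjusted p under 0.05, edgeR 0), with a median of 0.07. Among the coregulators of the receptor, Nrip1, a corepressor, rose in the Rptor line by 0.21 ± 0.06 (limma, adjusted p = 0.0272) as the single call of 7. Smarca4, a chromatin remodelling ATPase, gave -0.21 ± 0.07 (0.0511) and passed with the block (0.0433), with a mean of at least 50 (0.0493), in the fit of all 18 samples (0.0409) and without the first deficient lung (0.00350). There was no coregulator call in the other lines (1 and 0 at an unadjusted p under 0.05, edgeR 0).

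**Figure D4:**
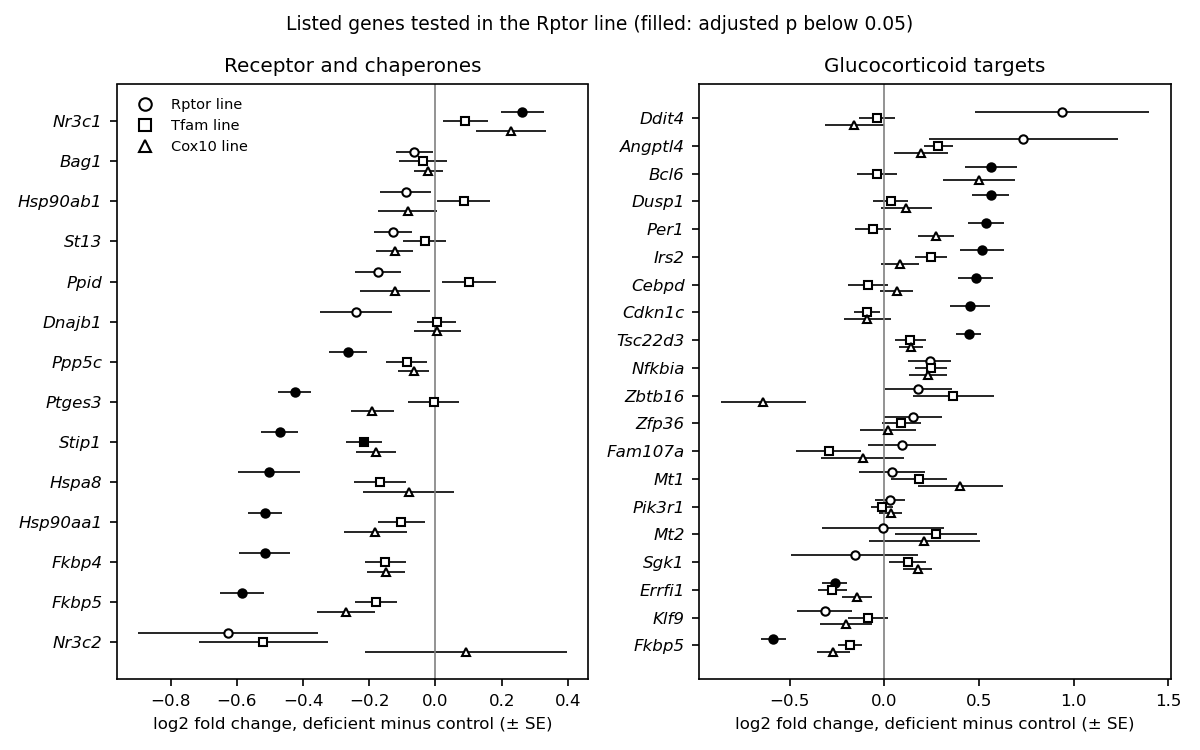
Log2 fold change (horizontal axis, deficient minus control, with SE) of the listed genes tested in the Rptor line, for the receptor with its chaperones (left) and the glucocorticoid targets (right), with circles, squares and triangles for the Rptor, Tfam and Cox10 lines and filled symbols for an adjusted p below 0.05. On the left 7 Rptor circles are filled below 0 and 1 above it, and on the right 2 are filled below 0 and 7 above it.

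The genes whose pattern was most like that of Crh were ranked over 12945 genes with a mean of at least 50 normalised reads that were tested in all 3 lines. Likeness was Pearson's r over the 18 samples on log2(value + 1) less the mean of the controls of the same line, and it is a description because Crh was chosen for this contrast and the samples of a group share it. The highest were Mecom, a zinc finger transcription factor (r = 0.98), Eif2b2, a subunit of the exchange factor that recharges translation initiation factor eIF2 (0.97), Dtx4, a ubiquitin ligase (0.97), Tbx1, a T-box transcription factor (0.97), and Ret, the receptor tyrosine kinase for GDNF-family ligands (0.96). The lowest were Ctnna2, an alpha catenin (-0.98), Adamts1, a secreted metalloprotease (-0.97), and Ube2h, a ubiquitin-conjugating enzyme (-0.97). These genes moved by very different amounts. The mean of Ret differed by -2.27, -1.59 and -1.66 with loss of Rptor, Tfam and Cox10, that of Tbx1 by -1.64, -0.86 and -1.13, and that of Eif2b2 by only -0.30, -0.20 and -0.17.

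Epithelial genes ranked lower on the same measure: Cdh1 was 251st (r = 0.88), Nkx2-1 396th (0.85) and Epcam 1575th (0.72). Sox2, the transcription factor of the proximal airway, gave 0.86. Of the other members, Fkbp5 gave 0.92 (rank 87), Tsc22d3 -0.82, Nr3c1 -0.69 and Hsd11b2 -0.11.

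**Figure D5:**
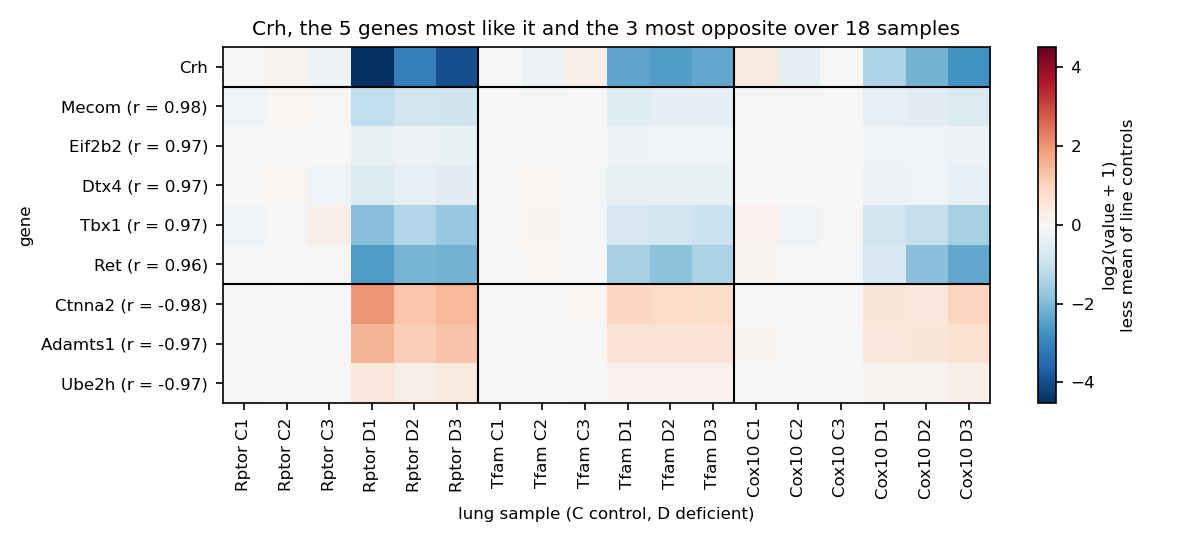
Colour shows log2(value + 1) less the mean of the controls of the same line (blue lower, red higher) for Crh, the 5 genes with the highest r and the 3 with the lowest, in each of the 18 lung samples (C control, D deficient). All deficient samples are blue for Crh and the upper genes and red for the lower 3, with Crh strongest and Eif2b2 and Ube2h faint.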

How the data were processed

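RNA-seq was performed by the authors on whole lungs at 14.5 dpc. The submitters' processing notes name Trim Galore, HISAT2, featureCounts, DESeq2 and mm10. Their versions and the use of strand in counting are not given in the sources used here. For each line the authors deposited a normalised signal per gene and sample, a read count divided by a size factor. In every sample 100% of the nonzero low values were whole multiples of 1 step (0.978 to 1.02, within a tolerance of 0.1 reads). Higher values were not checked in this way. The deposited fold changes and p-values of the authors' own tests were not used. Sample columns were matched by their names to the titles, and 0 were left unmatched.

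Each line was fitted with limma 3.58.1 (R 4.3.3, empirical Bayes with trend) on log2(value + 1) for genes with a value of at least 10 in at least 3 of 6 samples, with Benjamini-Hochberg adjustment over all genes tested and a threshold of 0.05. A pseudocount understates the change of low genes. Effects were compared between lines in 1 model with 6 groups. edgeR 4.0.16 was run on reads recovered from the steps as an alternative chosen after seeing the data. Scripts were tested on simulated data. At 27675601 to 29704748 recovered reads per library, a floor of 3 reads was set for a fold. Lengths per kilobase are merged exons of GENCODE M21, which include exons not used in lung. Paralogues with shared reads (Hsp90aa1 and Hsp90ab1) cannot be fully separated.

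Same-numbered samples deviated together in the Rptor line (r = 0.221, 0.330 and 0.259 over genes) and less evenly in the Cox10 line (0.447, 0.202 and 0.0488). In the Tfam line they did not (-0.312, -0.207 and 0.151). The mean r was 0.27 for Rptor, 0.233 for Cox10 and -0.123 for Tfam. The sample titles give a replicate number only, so that pairs were not established in any line. Counts and p-values as reported are from fits without pairing, and the block is an alternative. Named genes were the 8 members, listed pathway genes past the threshold in a line or at or near 0, the 5 genes most and 3 least correlated with Crh, and the marker lists. Klf9, Zbtb16, Sgk1, Ddit4, Hsp90ab1, Fdx1, Smarca4, Angptl4, Nfkbia, Dnajb1, Ppid, St13 and Nr3c2 were named after their values were seen. Members and lists were chosen with earlier results of these data known.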

Additional observations from a re-analysis of the deposited data

Results flagged for a closer look

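Fkbp5, the co-chaperone of the glucocorticoid receptor, was the single member in the limma model as reported whose effect differed between lines by a test of the difference itself. Its log2 fold change in the Rptor line was lower than that in the Tfam line by -0.41 ± 0.11 (SE; limma over 18 samples, adjusted p = 0.0233), and Fkbp5 was lower in 3 of 3 deficient lungs than in any control in both lines. Over the alternatives that kept all samples, the adjusted p ran from 0.0215 to 0.0354, but the difference did not pass without the first Rptor-deficient, the second Tfam control, the second Tfam-deficient or the third Tfam-deficient library (0.0535 to 0.0661). Blocking on replicate number, Tsc22d3 also differed, for Rptor against Tfam and against Cox10 (0.0219 and 0.0294).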

How the results depend on the processing

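In all fits made, Crh stayed lower in deficient lungs, with log2 fold changes from -4.25 to -3.53 for Rptor, -2.54 to -2.30 for Tfam and -2.43 to -1.76 for Cox10 when single samples were left out. In the Rptor line it could be fitted in 3 of these 6 cases, since without a control it did not pass the filter on low values. Members past the threshold numbered 2 to 3 in the Rptor line and 0 in the others with single samples left out. Pathway genes numbered 16 to 26 in the Rptor line (26 without the first deficient lung), 0 to 4 in the Tfam line (4 without the third control) and 0 in the Cox10 line. The single pathway call in the Tfam line became 0 without a filter on low values, 0 with scaling to library totals and 0 with edgeR. The number of differences between lines in the effect on a member, counted per member and pair of lines and 1 as reported, was 2 with Xist as a covariate and 0 to 4 with single samples left out, with 4 without the third Cox10-deficient library (Fkbp5 and Tsc22d3, each for Rptor against both other lines) and 0 without the second Tfam control or the second or the third Tfam-deficient library. Hsd11b1 in the Rptor line changed direction to 0.10 with Xist as a covariate, 0.63 without the first control and 0.13 without the first deficient lung, ranged from -0.54 to 0.63 with single samples left out, and did not pass the test in any fit. Counts of 1 to 3 reads limit what can be said of Crhr1 and Crhbp, and without a filter Crhbp was called in the Rptor line on 0 reads against 1 to 3, as were Cyp17a1, Mrap and Pcsk1 on low values.

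Blocking on replicate number, 25, 2 and 0 pathway genes passed for Rptor, Tfam and Cox10 (5 gained for Rptor: Angptl4, Ddit4, Fdx1, Nr3c2 and Smarca4), members past the threshold stayed at 3, 0 and 0, and 3 effects of members differed between lines (Fkbp5 for Rptor against Tfam, and Tsc22d3 for Rptor against both other lines). Over all genes the block called 5768, 802 and 48 in place of 5202, 702 and 71. Whether the numbers mark pairs was not established in any line, so that the block is given as an alternative only.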
